A study of Homo sapiens with 2 samples.

Results

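The genes described here are 10 genes of cellular iron handling: TFRC, STEAP3 and SLC11A2 for uptake, FTH1, FTL and NCOA4 for storage and its release, IREB2 and FBXL5 for sensing, and SLC25A37 and SLC25A28 for import into mitochondria. They were taken by NCBI gene ID from the deposited tables, where all 10 were found among 27685 genes, and their levels were compared between untreated and metformin-treated cells. The cells were of the human line H1299, derived from non-small cell lung cancer, at passages 10 to 15 and grown in medium with fetal bovine serum. The control group was 1 library of untreated cells, and the metformin group was 1 library of cells given 5 mM metformin, a biguanide drug that inhibits complex I of the respiratory chain. How long the cells were treated is not stated in the labels. With 1 library per group no difference has a replicate check, no test was run, and differences between cultures cannot be told apart from an effect of the drug.

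Iron enters most dividing cells bound to serum transferrin, which is taken up by the transferrin receptor. It is released in endosomes, reduced and carried into the cytosol, where it is used in haem and iron-sulfur clusters, many of them in mitochondria, or stored inside ferritin. Cells sense iron through the iron regulatory proteins, which bind a hairpin in mRNA called the iron-responsive element (IRE) when iron is scarce. Binding in the 5′ UTR blocks translation, as in the ferritin mRNAs, while binding in the 3′ UTR protects the transferrin receptor mRNA from decay.

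The IRE was looked for in the mRNAs of the 10 genes because iron is known to act through it on the ferritin and transferrin receptor mRNAs. The pattern was CNNNNNCAGTGN on the strand of the mRNA, followed by 5 bases that pair, G with T allowed, with the 5 bases before the loop. In the canonical transcripts of GENCODE 44 on GRCh37 it matched TFRC 4 times, FTH1 once and FTL once, and had no match in those of the other genes. The lack of a match, as for SLC11A2, says only that these letters were not found in the canonical transcript. Other transcripts of a gene and hairpins of another form were not searched. The pattern was present in the 5′ UTR of 0.0933% of 19294 protein-coding transcripts with a 5′ UTR, and in the 3′ UTR of 0.617% of 19778. TFRC was the 1 transcript with 4 matches in its 3′ UTR, and no transcript had more. The matches are shown as 30 bases each, 5′ to 3′ along the mRNA and written as DNA, with the 6 bases of the loop in capitals. All 4 of TFRC lie in its 3′ UTR on the minus strand of chromosome 3, that of FTH1 in its 5′ UTR on the minus strand of chromosome 11, and that of FTL in its 5′ UTR on the plus strand of chromosome 19.
TFRC at chr3:195777849-195777878: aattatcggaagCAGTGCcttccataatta
TFRC at chr3:195777445-195777474: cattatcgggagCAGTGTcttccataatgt
TFRC at chr3:195777380-195777409: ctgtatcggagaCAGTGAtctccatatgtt
TFRC at chr3:195777333-195777362: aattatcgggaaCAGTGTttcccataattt
FTH1 at chr11:61735045-61735074: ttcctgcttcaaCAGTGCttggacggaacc
FTL at chr19:49468592-49468621: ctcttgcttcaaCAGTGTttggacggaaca
These are reference sequences, and a match is a description of the letters, not a measurement of binding. With the deposited TPM the genes with a match, TFRC, FTL and FTH1, were also the 3 with the largest differences between the libraries. Most of the other ways of scaling and filtering described below shift all genes nearly alike or leave these values unchanged. They could therefore hardly alter this order. With the GC and length trend removed, FBXL5, which has no match, stood above FTH1.

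Levels are given in TPM, a length-corrected share of the transcripts in a library, which can be compared between genes. Aligned bases came to 5.80 Gb in control and 6.40 Gb in metformin, an estimated 28.7 M and 31.7 M read pairs. Each ratio of TPM has a 95% interval from estimated read pairs, and these intervals cover the counting of reads only. All 10 genes passed the minimum of 1 TPM in at least 1 library, as did 14078 of all genes. All 7 markers of the line reached 1 TPM in at least 1 library. The keratins KRT8 and KRT18 had 269 and 553 TPM in control and were 1.94-fold and 1.72-fold higher in metformin, sizes like that of TFRC. KRT7 had 0.663 and 2.05 TPM, vimentin (VIM) stood at 1.13 of its control level of 4378 TPM and CD44 at 1.03, while CDH2 and NRAS stood at 0.834 and 0.847. Their part in the values of the iron genes was not tested. None of 7 markers of lung epithelium reached 1 TPM, with SFTPB, SFTPC, SFTPA1 and SCGB1A1 listed at 0 in both libraries. The 8 erythroid markers summed to 0.542 TPM in control and 1.03 in metformin, with HBB and ALAS2 at 0 in both. The 6 markers of fibroblasts and endothelium summed to 0.196 and 0.697 TPM. Of 6 leukocyte markers only the lysosomal gene CD68 reached 1 TPM, at 148 and 115. In RNA from a whole culture, fewer cells with a transcript and less of it per cell cannot be told apart.

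The uptake genes differed among themselves. TFRC encodes transferrin receptor 1, which carries transferrin-bound iron into the cell. It lies on chromosome 3 at 195776155 to 195809032 of hg19. TFRC had 114 TPM in control against 198 in metformin. Its level was thus 1.73-fold higher in metformin (95% counting interval 1.68 to 1.79), a difference of 0.79 on the scale of log2(TPM + 1). This was the largest difference of the 10 genes, and 2.78% of all measured genes had a difference as high or higher. STEAP3, the endosomal reductase that turns ferric into ferrous iron for export from the endosome, had 60.7 TPM in the control library and 71.8 in the metformin library. The ratio of STEAP3 was 1.18 (1.13 to 1.24). SLC11A2 encodes DMT1, the carrier that moves ferrous iron across the endosomal membrane. SLC11A2 had 30.7 TPM in control against 29.9 in metformin, and the interval of its ratio of 0.974, 0.908 to 1.04, included 1. Within the pathway from receptor to endosome, TFRC was 1.88 times the level of STEAP3 in control and 2.76 times in metformin. That relation was 1.47-fold higher in metformin (1.39 to 1.55).

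The ferritin genes were the most abundant of the 10. FTL encodes the light chain of ferritin, which promotes formation of the iron core, and lies on chromosome 19 at 49468566 to 49470136. FTL had 1681 TPM in control against 2607 in metformin, for a ratio of 1.55 (1.52 to 1.58). FTH1 encodes the heavy chain, whose ferroxidase activity oxidises iron as it enters the shell, and lies on chromosome 11 at 61731757 to 61735132. FTH1 had 495 TPM in control against 691 in metformin, for a ratio of 1.40 (1.36 to 1.44). Both chains were thus higher in the library of treated cells, FTL by more than FTH1. The light chain was 3.40 times the level of the heavy chain in control and 3.77 times in metformin, and this relation was 1.11-fold higher (1.07 to 1.15). Together the chains made up 0.218% of all TPM in control and 0.330% in metformin. By level, FTL ranked 77 among measured genes in control and 52 in metformin, and FTH1 ranked 272 and 181. Ferritin has many processed pseudogenes that can share reads with it. The 2 such pseudogenes identified by name in the tables were below 1 TPM in both libraries, and reads of copies not listed could have been assigned to FTH1 or FTL.

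NCOA4, the receptor that delivers ferritin to autophagosomes so that its iron is freed, was not higher with the ferritin chains. NCOA4 had 93.4 TPM in control against 85.8 in metformin, for a ratio of 0.918 (0.879 to 0.960). The level of FTH1 was 5.30 times that of NCOA4 in control and 8.06 times in metformin, 1.52-fold higher (1.44 to 1.60). NCOA4 lies on chromosome 10 at 51565108 to 51590734 inside the interval listed for TIMM23B, a gene of the same strand, so reads of the overlap may have been counted for either. Summed over both genes the level was 130.1 TPM in control against 121.5 in metformin, for a ratio of 0.934.

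**Figure D1:**
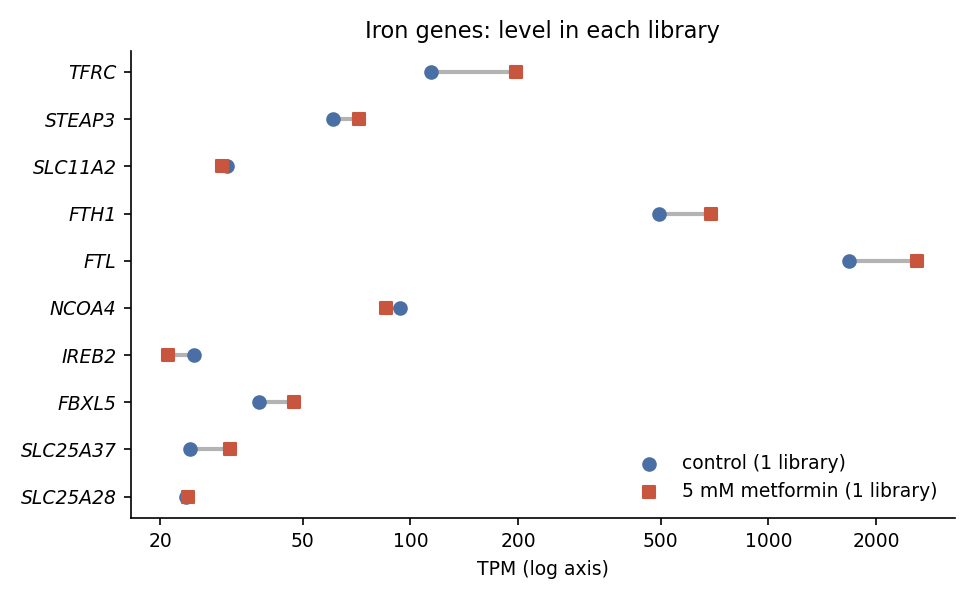
Level of each of the 10 iron genes in TPM (horizontal, log axis) in the control library (circles) and the library of cells given 5 mM metformin (squares), ordered by role, with 1 library each and a grey line joining the values. The ferritin genes FTL and FTH1 lie furthest right in both, and the longest shifts to the right are those of TFRC, from 114 to 198 TPM, and FTL, from 1681 to 2607.

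The sensing genes went in opposite directions with the deposited TPM. IREB2 encodes iron regulatory protein 2, which binds the IRE in iron-poor cells. IREB2 had 24.9 TPM in control against 21.1 in metformin, for a ratio of 0.847 (0.794 to 0.903). FBXL5 is the subunit of a ubiquitin ligase that senses iron and oxygen and marks iron regulatory protein 2 for degradation. FBXL5 had 37.7 TPM in control against 47.4 in metformin, for a ratio of 1.26 (1.18 to 1.34). FBXL5 mRNA was therefore 1.51 times the level of IREB2 mRNA in control and 2.25 times in metformin, 1.48-fold higher (1.36 to 1.62). Of all measured genes, 31.6% had a difference as low as that of IREB2 or lower, and 13.7% one as high as that of FBXL5 or higher. With the GC and length trend removed, as described below, IREB2 stood at -0.04 and FBXL5 at 0.50. ACO1 encodes iron regulatory protein 1, the other IRE-binding protein, which is also the cytosolic aconitase. It is not among the 10 genes and had 44.0 TPM in control against 45.0 in metformin, with a ratio of 1.02 (0.978 to 1.07). ACO1 mRNA was 1.77 times the level of IREB2 mRNA in control and 2.13 times in metformin. The proteins, whose amounts are set largely by degradation and by cluster assembly, were not measured.

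SLC25A37 and SLC25A28 encode mitoferrin 1 and mitoferrin 2, carriers that bring iron into the mitochondrial matrix. Mitoferrin 1 is best known from red cell precursors and mitoferrin 2 from other cells. In control they were listed at nearly the same level, SLC25A37 at 24.2 TPM and SLC25A28 at 23.6, with overlapping counting intervals. In metformin SLC25A37 was listed at 31.3 TPM, a ratio of 1.29 (1.21 to 1.39). SLC25A28 was listed at 24.0 TPM, a ratio of 1.02 whose interval, 0.894 to 1.16, included 1. The relation of mitoferrin 1 to mitoferrin 2 was 1.03 in control and 1.30 in metformin, 1.27-fold higher (1.10 to 1.47).

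**Figure D2:**
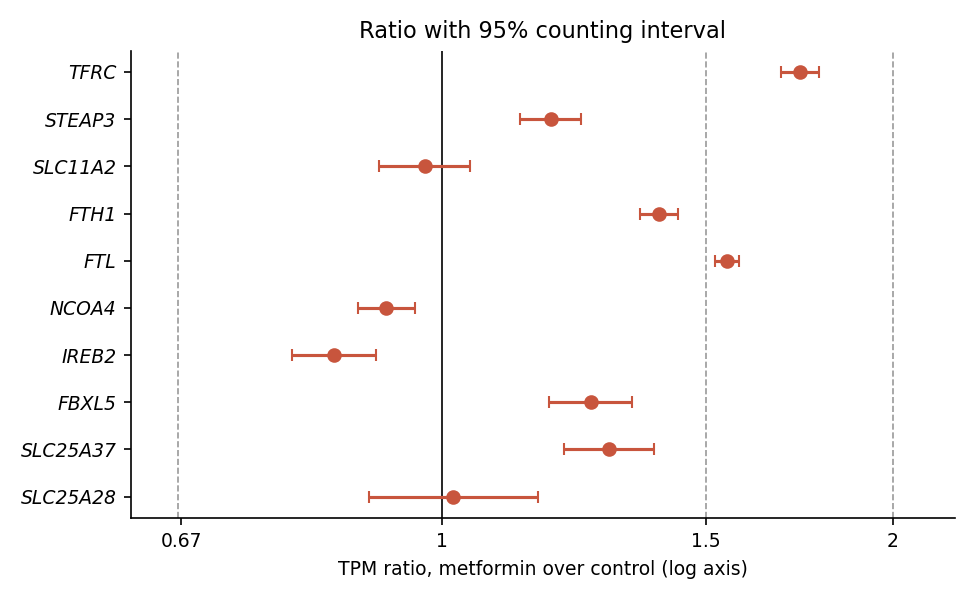
Ratio of TPM, metformin over control (horizontal, log axis), for each of the 10 genes, with bars for the 95% interval of read counting, a solid line at 1 and dashed lines at 1.5-fold lower, 1.5-fold higher and 2-fold higher. The points of TFRC and FTL lie past 1.5-fold, no gene reaches 2-fold, and the bars of SLC11A2 and SLC25A28 cross 1.

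By level, the order in control was FTL, FTH1, TFRC, NCOA4, STEAP3, FBXL5, SLC11A2, IREB2, SLC25A37 and SLC25A28. The last 3 could not be ordered, since the counting intervals of IREB2 and SLC25A37, and of SLC25A37 and SLC25A28, overlapped. In metformin the first 6 stood in the same order. They were followed by SLC25A37 and SLC11A2, with overlapping intervals, and by SLC25A28 and IREB2, again with overlapping intervals. The lowest level of any of the 10 was 21.1 TPM, that of IREB2 in metformin.

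Of the 10 genes 7 lay above 0 and 3 below on the log2(TPM + 1) scale, where 40.3% of all measured genes lay above 0 and 59.7% below. After the centring described below, 8 of the 10 lay above 0 and 2 below. The median of all measured genes was then 0.008, so about as many of them lay above 0 as below. The counting interval lay above 1 for 6 genes, below 1 for 2 and included 1 for 2. Of the 13165 measured genes with such an interval, 24.3% had it above 1 and 42.5% below. A difference of 1.5-fold or more was reached by 2 genes in the direction of higher levels in metformin, TFRC and FTL, where 5.40% of all measured genes passed the same line. None was lower by that much, where 7.03% of measured genes were. At 2-fold none was higher and none lower, against 1.51% and 1.24% of measured genes. Low genes scatter more, and of the 6475 genes that reached 20 TPM in each library, a level that all 10 reached and that was chosen after their values were seen, 2.67% were higher by 1.5-fold and 4.66% lower. At 2-fold these shares were 0.541% and 0.479%. The median difference over the 10 genes was 0.28, while over all measured genes it was -0.08. The 10 genes ranged from -0.23 for IREB2 to 0.79 for TFRC.

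**Figure D3:**
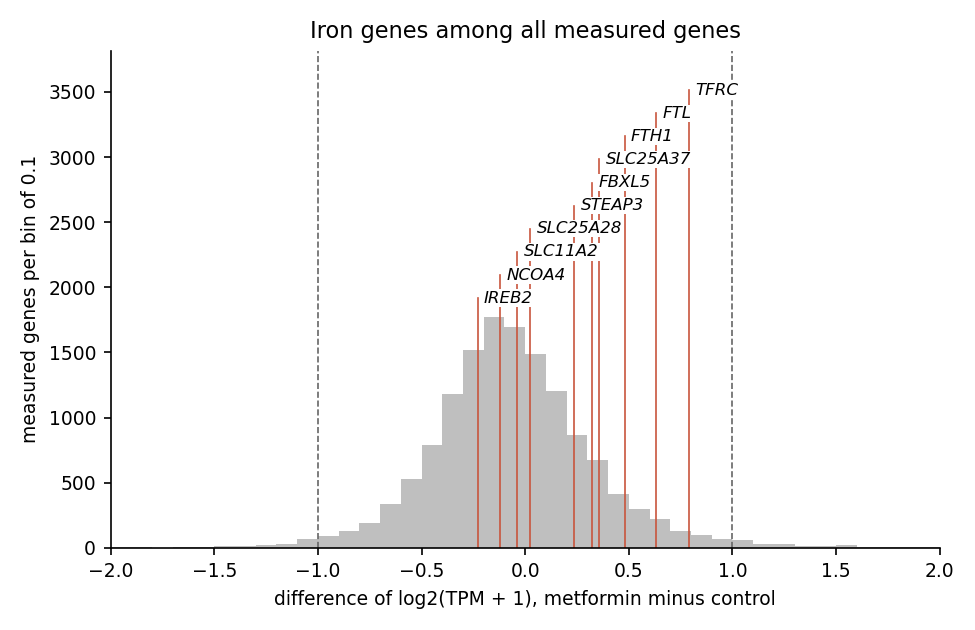
Histogram of the log2(TPM + 1) value in metformin less that in control, for the 14078 measured genes (grey, bins of 0.1; genes beyond the axis are not drawn), with a line at each of the 10 iron genes and dashed lines at 2-fold. TFRC, FTL and FTH1 lie in the right flank of the distribution, with 2.78%, 4.60% and 7.84% of measured genes at or above them, while IREB2, NCOA4, SLC11A2 and SLC25A28 lie in its bulk.

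The values depended in part on how the libraries were scaled and on base composition. After centring on the median difference of genes that reached 10 TPM in each library, which was -0.09, TFRC stood at 0.88, FTL at 0.72 and FTH1 at 0.57. Of all measured genes 760 were higher and 990 lower by 1.5-fold with the deposited TPM, and 1032 and 672 after centring, which put the higher genes at 43.4% and 60.6% of those past the line. TPM differences also went with the GC content and length of the transcript. Transcripts of TFRC, FBXL5 and IREB2 are poor in GC (40.9%, 39.4% and 38.2%), and that of FTL holds 56.0%. With the trend over GC and length removed, TFRC stood at 0.92, FBXL5 at 0.50, FTH1 at 0.46 and FTL at 0.54, so that FTL no longer reached 1.5-fold and TFRC alone did. Under the same correction IREB2 stood at -0.04 and NCOA4 at -0.02. SLC11A2 changed sign, from -0.04 to values between 0.02 and 0.06, with coverage in place of TPM, under both ways of rescaling and with the trend removed. SLC25A28 changed sign with the trend removed, from 0.02 to -0.09. The other 8 genes kept their sign in all 14 settings, though some of these settings cannot alter the values of most of the 10 genes.

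**Figure D4:**
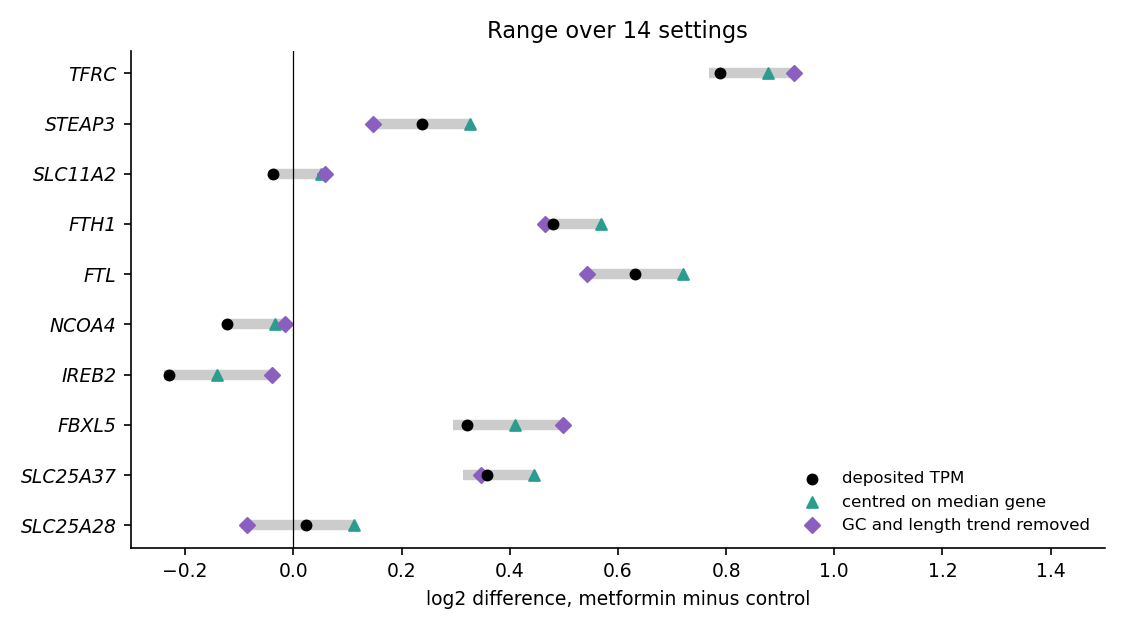
Log2 difference, metformin minus control, of each of the 10 genes with the deposited TPM (black), after centring on the median of abundant genes (triangles) and with the GC and length trend removed (diamonds), with grey bars for the range over 14 settings. The bars of SLC11A2 and SLC25A28 cross 0, and those of TFRC, FTL, FTH1, SLC25A37, FBXL5 and STEAP3 lie to its right.

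Around these 10 genes, 98 other genes of iron, haem and iron-sulfur metabolism in 9 lists were examined, of which 84 were measured. Of the 84, 37 lay above 0 and 47 below, with a median difference of -0.04. After centring as above, 51 lay above 0 and 33 below, with a median of 0.05 beside 0.008 over all measured genes. These genes as a whole thus have no direction that holds under both scalings. By 1.5-fold, 5 were higher (LRP1, FECH, HMOX1, EPAS1 and BOLA2) and 2 lower (STEAP1 and NUBPL). These are 5.95% and 2.38% of the 84, beside 5.40% and 7.03% of all measured genes, so the share of higher genes was near the background.

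Among 12 measured genes of uptake, 9 lay below 0 with a median of -0.15, but 7 lay above 0 with the GC and length trend removed, with a median of 0.03. STEAP1, a relative of STEAP3 at the cell surface, had 109 TPM in control against 54.3 in metformin, for a ratio of 0.499 (0.459 to 0.541) that lay just short of 2-fold on the log2(TPM + 1) scale. The metal carrier SLC39A8 stood at 0.727 of control, and SLC39A14, which imports iron not bound to transferrin, at 1.09. CYBRD1, a ferric reductase, was listed at 19.0 and 20.1 TPM. LRP1, a scavenger receptor that takes up haem bound to hemopexin, was 1.68-fold higher (1.58 to 1.78).

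Of 8 measured genes linked to storage, 6 lay above 0 and none passed 1.5-fold, with a median of 0.19. The iron chaperones PCBP1 and PCBP2, which deliver iron to ferritin, stood at 0.900 (0.873 to 0.928) and 1.19 (1.17 to 1.22) of control. ATG5, an autophagy factor, was 1.29-fold higher and HERC2, a ubiquitin ligase that acts on NCOA4, stood at 0.971. Of 5 other genes of sensing, 3 lay above 0 and 2 below, with a median of 0.02 and none past 1.5-fold. CUL1 and RBX1, subunits of the FBXL5 ligase, stood at 0.825 and 0.935 of control, and CIAO3, a factor of cluster assembly, at 1.03. The exporter ferroportin, SLC40A1, was near the limit, at 0.941 TPM in control and 1.69 in metformin (ratio 1.79, 1.20 to 2.72). BMP6, a ligand that induces hepcidin, stood at 1.18 of control and overlaps TXNDC5 on the other strand. The other 6 export genes did not reach 1 TPM.

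In haem synthesis 6 of 12 measured genes lay above 0 with a median of -0.01. After centring 10 of 12 lay above 0, but their median was only 0.08, beside 0.008 over all measured genes. The largest differences were at the first and last steps. ALAS1, the first and rate-limiting enzyme, was 1.46-fold higher (1.39 to 1.54), from 87.7 to 129 TPM. FECH, ferrochelatase, which inserts iron into the ring at the last step, had 7.94 TPM in control against 13.7 in metformin, 1.73-fold higher (1.58 to 1.89). TMEM14C and SLC25A38, mitochondrial carriers of the pathway, stood at 0.928 and 0.915 of control. In haem breakdown and transport 5 of 11 lay above 0 with a median of -0.01. HMOX1, haem oxygenase 1, which frees iron from haem, was listed at 36.9 and 71.2 TPM, 1.93-fold higher (1.77 to 2.12). BLVRA, the reductase after it, was 1.48-fold higher (1.35 to 1.64). PGRMC1 and PGRMC2, which bind haem, stood at 0.683 and 0.758 of control.

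Iron-sulfur cluster assembly lay near the bulk of genes, with a median of -0.07 over 19 mitochondrial genes and -0.08 over 11 cytosolic ones, or 0.02 and 0.01 after centring. NUBPL, an assembly factor for the clusters of complex I, stood at 0.549 of control (0.468 to 0.645), and the cluster carrier GLRX5 at 0.684 (0.639 to 0.733). The scaffold ISCU and the chaperone HSPA9 stood at 1.22 and 1.20 of control. Among cytosolic genes GLRX3 and CIAO1 stood at 0.802 and 0.818 of control and CIAO2B at 1.17. BOLA2 was listed at 18.3 and 57.3 TPM, but it has a near-identical copy, BOLA2B, which was listed at 138 and 71.6. The sum of BOLA2 and BOLA2B had a ratio of 0.826, so the value of BOLA2 alone is uncertain.

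Other mRNAs known for an IRE did not share a direction, with 4 of 6 measured genes above 0 and a median of 0.03. EPAS1, which encodes HIF-2 alpha, was low in both libraries, at 1.40 and 4.36 TPM, a ratio of 3.11 (2.44 to 3.98). PFN2, an actin-binding profilin, stood at 0.683 of control and the phosphatase CDC14A at 0.806. SLC40A1 had 1 match to the pattern in the 5′ UTR and CDC14A 1 in the 3′ UTR. EPAS1 and PFN2 had none, which says only that these letters were not found in their canonical transcripts.

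**Figure D5:**
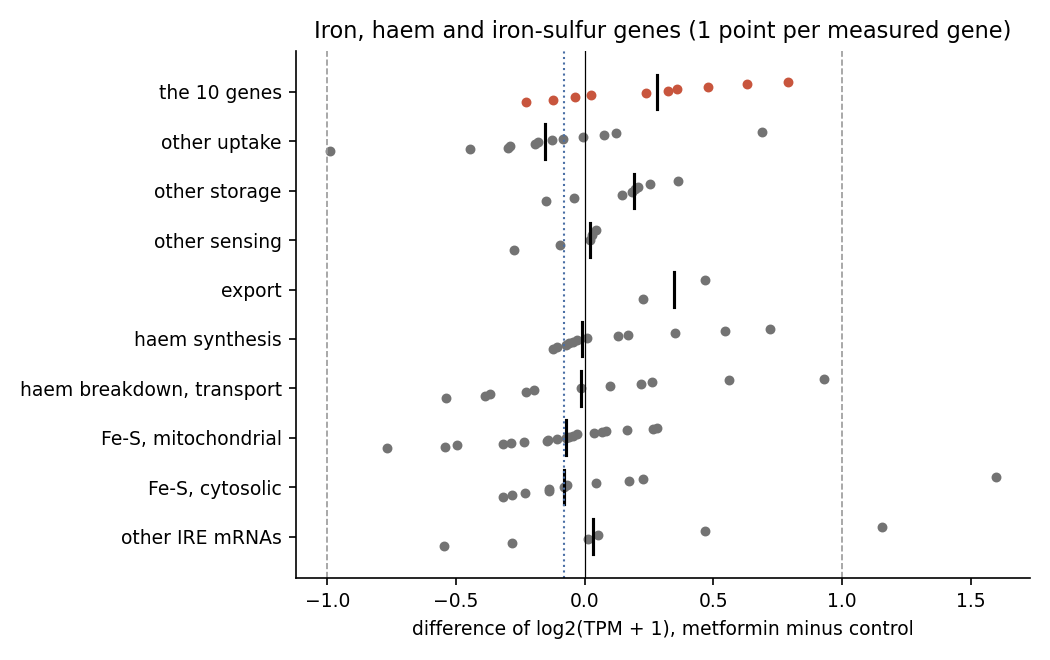
The log2(TPM + 1) value in metformin less that in control for each measured gene (1 point) of the 10 iron genes (red) and of 9 lists of other iron, haem, iron-sulfur (Fe-S) and IRE genes (grey), with a black bar at each median, a dotted line at the median of all measured genes, -0.08, and dashed lines at 2-fold. Points past 2-fold are BOLA2 and EPAS1. The median of the 10 genes is 0.28, and those of the other lists run from -0.15 (other uptake) to 0.35 (export, with 2 measured genes).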

How the data were processed

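An RNA library of H1299 cells without metformin and another with 5 mM were compared. The labels' protocols give Bowtie2 and hg19 for mapping. Per the submitters' processing notes, Trimmomatic 0.38 and HISAT2 were used too. No source used here gives the abundance program, the annotation or whether strand was used. TPM, FPKM and coverage (a signal, mean read depth) were computed per gene by the authors and deposited. Rows of a gene ID were summed. Symbols came from RefSeq (GRCh38, names only), which matched 27559 of 27685 IDs.

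The comparison was the difference of log2(TPM + 1), with a pseudocount of 1, over genes at 1 TPM or more in a library. Such differences understate those of low genes, and counts past 1.5-fold or 2-fold use this scale. Aligned bases were the largest ratio of coverage to FPKM. A read pair was taken as 202 bases, the most common base total of short rows with few reads (39 of 262 in control, 48 of 244 in metformin). Pairs per gene came from FPKM and transcript lengths (canonical, GENCODE 44). Exact Clopper-Pearson 95% intervals followed for ratios between libraries, exact Poisson ones for levels, and log-scale approximate ones for relations between 2 genes. PCR duplicates can make these too narrow. The GC and length trend was a cubic fit over 13185 genes (93.7%).

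All 10 genes were named, with up to 2 measured genes at each end of each other list, every list gene past 2-fold, and ACO1, HMOX1, SLC40A1, ALAS1, EPAS1 and CYBRD1. A few further genes under this rule are left out here. CD68 and the genes that overlap or copy a listed gene were named after their values were seen, as were the markers. The genes and lists were chosen with earlier results of these data known. Scaling, pseudocount, minimum, unit and read-sharing alternatives were tried. The differences, the intervals of ratios and the counts past a fold were tested on simulated read counts with known folds. These counts held counting error only. The depth estimate, the summing of rows, the trend, the centring and the IRE search were not tested in this way. Python 3.11.15, numpy 2.4.6, pandas 2.3.3 and scipy 1.17.1 were used.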

Additional observations from a re-analysis of the deposited data

How the results depend on the processing

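Each value was recomputed under 13 alternatives, 12 planned and 1 added after seeing the data (NCOA4 summed with TIMM23B). Of 130 values of single genes, 112 stayed within the counting interval and 18 moved beyond it. Many of the 112 could not move. Dropping the minimum, raising it to 5 TPM or taking the largest row of a gene left all 10 genes unchanged. Adding pseudogenes changed only FTH1, and adding TIMM23B changed only NCOA4. The count of 112 is therefore no measure of how robust the values are. The median difference of the 10 genes, 0.28, was 0.37 after centring and 0.37 with trimmed mean scaling, since both shift all genes. The count of genes higher by 1.5-fold, 2, was 1 with the GC and length trend removed, and no gene passed 2-fold or was lower by 1.5-fold under any alternative. Over all measured genes, 760 higher and 990 lower by 1.5-fold became 320 and 438 with a pseudocount of 5, and 1034 and 1325 with one of 0.1. The counts were 471 and 746 with a minimum of 5 TPM, 529 and 556 with FPKM, and 485 and 514 with coverage. With 1 library per group none could be left out. No paired analysis was possible because each group has 1 library. Depth limits SLC40A1 and other genes near 1 TPM. The 10 genes have no replication.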
